A study of Rattus norvegicus with 18 samples.

Results

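Insulin and insulin-like growth factor (IGF) signalling was followed through 6 genes in rat gastrocnemius muscle, namely the ligands Igf1 and Igf2, the receptors Igf1r and Insr, and the adaptors Irs1 and Irs2. They were chosen by Ensembl identifier and by chromosome, and all 6 were found among the 32883 identifiers of the count table. RNA was sequenced from male Brown Norway rats that had been fed ad libitum (AL) until 2 months of age and were then housed singly, with 6 young rats fed AL studied at 6 months, 6 aged rats fed AL and studied at 28 months, and 6 aged rats under caloric restriction (CR) studied at 28 months. The CR rats received 55% of the intake of AL rats of their age from 2 months onwards. No young CR group was analysed here, so the effect of diet was seen in aged rats alone. Feeding times differed too, with a short morning window under CR and no limit under AL. Amount and schedule of feeding thus cannot be told apart. The sources used here give no time of day and no time since the last meal for the collection of tissue. In the plots the groups are named young AL, old AL and old CR.

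Total counts per library lay between 17335401 and 27432767, and every one of the 6 genes passed the filter on low counts that left 14646 genes. The fewest counts of any of them in a library were 180, for Igf1r. For 3 of the 6 aged CR libraries the column name fits the group and not a single rat, so these go by the numbers of their libraries, 8826, 8827 and 8828. The library numbers run in a separate block for each group, and the labels do not say what they record. Rat 8 of the aged AL group and library 8828 of the aged CR group stood apart from the other 16 libraries. A set of 954 genes, Igf1 among them, was at least 2 times higher in rat 8 than in every other rat fed AL, at 1 CPM (count per 1000000 counts of the scaled library) or more. Without Igf1, the set took 7.94% of the counts in rat 8 and 4.13% in library 8828, against 0.483 to 1.12% in the other 16. The high share in rat 8 follows from how the set was chosen. No such set was drawn for any other library, so the number of genes has no baseline. The CR libraries were not used to choose the set. The library size after TMM scaling (trimmed mean of M-values), relative to the total count, was 1.43 for rat 8, 1.11 for library 8828 and from 0.837 to 1.13 in the other 16, so on this measure only rat 8 stood apart. Levels depend on the scaling, most of all in rat 8, and counts of libraries that change without it are given in CPM of total counts as well, a check added after the data were seen. Results that rest on these libraries are therefore given with and without them.

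In this pathway IGF1 and IGF2 are secreted growth factors that bind the IGF1 receptor, and insulin binds the insulin receptor. Both receptors are tyrosine kinases and hand their signal to the docking proteins IRS1 and IRS2, which recruit phosphatidylinositol 3-kinase and so turn on Akt, glucose uptake and protein synthesis. In skeletal muscle the pathway is known for insulin-stimulated glucose uptake, for growth, and for restraining FoxO transcription factors. IGF1 in blood comes mostly from the liver, and muscle makes its own. Igf2 is an imprinted gene that is most active before birth.

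The adaptors carried the clearest differences. Between aged and young rats fed AL, 2 of the 6 genes were called, Irs1 and Irs2, both lower, where 3.39% of all genes tested were called and 1.52% were called lower. A call required a Benjamini-Hochberg adjusted p of at most 0.05 over all genes and a fold change of at least 1.5. Against the young rats, the aged CR rats were also called lower for these 2 genes and no other member, where 1.98% of all genes tested were called and 1.22% were called lower. Both comparisons use the same young rats. Over the 6 genes the median log2 fold change was -0.48 for aged against young rats under AL feeding, -0.12 for aged CR against young rats and 0.04 for aged CR against aged AL rats, beside medians of 0.0071, 0.0046 and -0.019 over all genes tested. With all 18 libraries, edgeR called no member higher in any comparison, while DESeq2 called Igf2 higher with age under AL feeding and Igf1r higher under CR in the aged groups, and edgeR called both in some of the fits that left out libraries. Between the aged groups 0 members were called by edgeR's quasi-likelihood test, where 1.38% of all genes were called, 1 was called by DESeq2 (Igf1r), where DESeq2 called 2.89% of the genes it gave an adjusted p, and 2 had an unadjusted p under 0.05 (Igf1r and Insr), as 15.3% of all genes had. In none of the 6 were the aged groups separate, where 2.06% of all genes had groups that did not overlap. In muscle homogenate, fewer cells of a type and less RNA per cell cannot be told apart.

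**Figure D1:**
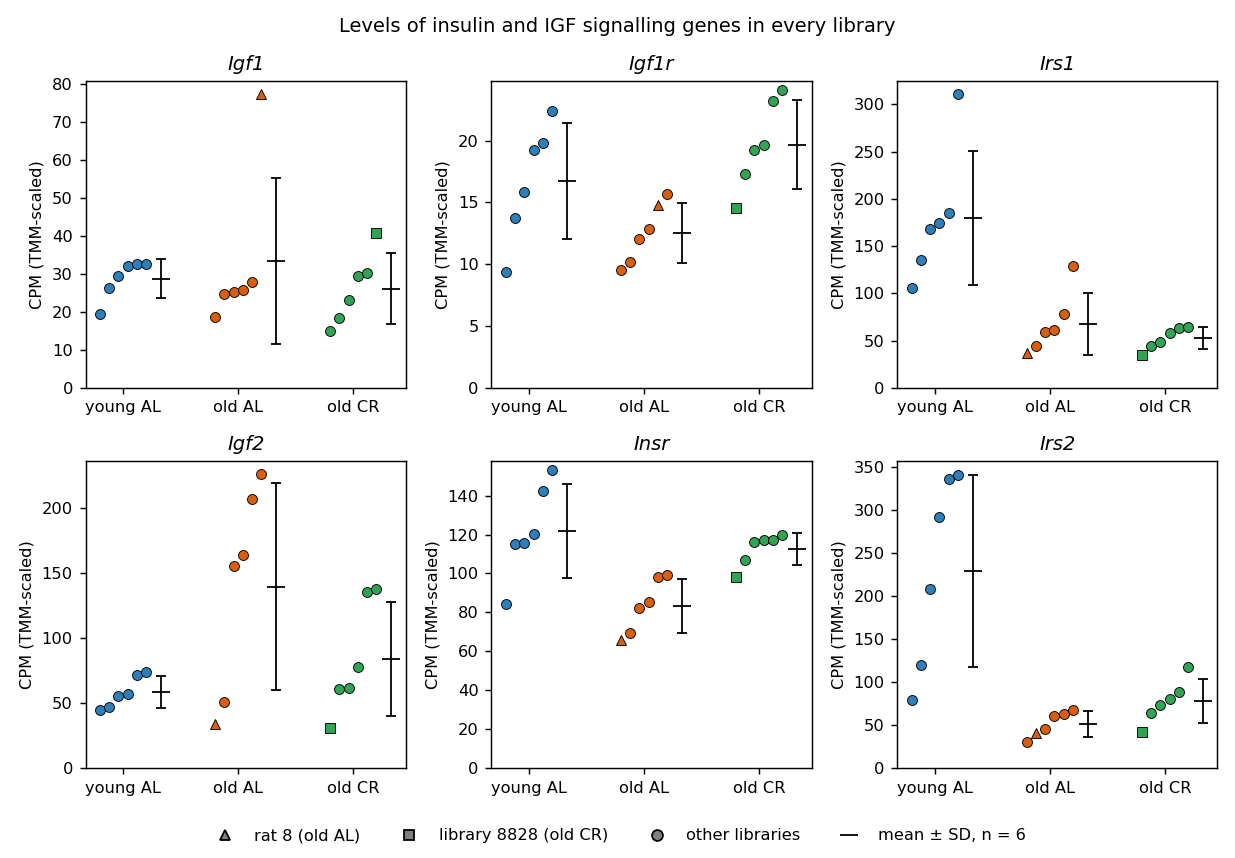
Level of each gene in every library in CPM after TMM scaling (vertical axis, linear from 0), by group, with the mean ± SD beside the points. Irs1 lies below 65 CPM in all aged CR libraries and above 105 in all young rats, Irs2 lies below 68 CPM in all aged rats fed AL and above 79 in all young rats, and rat 8 stands alone for Igf1 at 77.4 CPM.

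Irs1 (ENSRNOG00000014597) encodes the docking protein that couples the insulin and IGF1 receptors to phosphatidylinositol 3-kinase, and lies on the minus strand of chromosome 9 of Rnor_6.0 from 88033668 to 88086488, with 5354 bases of exon in 2 blocks. In young rats fed AL its level ran from 105 CPM (rat 4) through a median of 171 to 311 (rat 1). In aged rats fed AL it ran from 36.3 (rat 8) through 59.8 to 128 CPM (rat 10), and in aged CR rats from 34.9 (library 8828) through 53.3 to 64.8 CPM. Every aged CR library thus lay below every young rat, as 1.61% of all genes did, while rat 10 kept the aged AL group from being separate from the young. The mean level was 179.7 ± 70.6 CPM (SD, n = 6) in the young, 67.8 ± 32.9 (SD, n = 6) with age under AL feeding and 52.2 ± 11.7 (SD, n = 6) with age under CR.

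Irs1 fell by 1.41 on the log2 scale between young and aged rats fed AL (standard error 0.28, 95% interval -2.0 to -0.81, adjusted p = 0.00988, edgeR's quasi-likelihood test). That is a level 2.65-fold lower. Between young rats and aged CR rats it fell by 1.78 (standard error 0.29, 95% interval -2.39 to -1.18, adjusted p = 0.00215), a level 3.45-fold lower. Both calls were kept in each of the 18 fits that left out 1 library. Aged CR and aged AL rats did not differ beyond their spread, with a log2 difference of -0.38 and a 95% interval from -0.96 to 0.21 (adjusted p = 0.572). Without rat 10 that difference was -0.10.

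Among the 6 members, Irs2 (ENSRNOG00000023509) had the largest fold difference with age under AL feeding. It encodes the sister docking protein of IRS1, and lies on the plus strand of chromosome 16 from 83824430 to 83848684, with 6501 bases of exon in 2 blocks. In young rats fed AL it ran from 79.1 CPM (rat 1) through a median of 250.4 to 341 (rat 4), the widest spread of the 6 genes in that group. In aged rats fed AL it ran from 30.1 (rat 9) through 53.2 to 67.8 CPM (rat 12), and in aged CR rats from 42.1 (library 8828) through 77.1 to 118 CPM (library 8827). All 6 aged rats fed AL lay below every young rat, as 1.11% of all genes did. Of the aged CR rats 3 lay below every young rat (2 in CPM of total counts), and the other 3 lay above rat 1 and below the other young rats.

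Mean Irs2 was 229.5 ± 112 CPM (SD, n = 6) in the young, 51.3 ± 14.8 (SD, n = 6) in the aged AL group and 77.9 ± 25.3 (SD, n = 6) in the aged CR group. Irs2 fell by 2.16 on the log2 scale between young and aged rats fed AL (standard error 0.33, 95% interval -2.86 to -1.47, adjusted p = 0.00212), or 4.47-fold, and its p was the 23rd lowest of 14646. Between young rats and aged CR rats it fell by 1.56 (standard error 0.32, 95% interval -2.24 to -0.88, adjusted p = 0.0141), or 2.95-fold. The aged CR group was higher than the aged AL group by 0.60, with an interval from -0.07 to 1.27 that includes 0 (adjusted p = 0.393). In that comparison 4 of 6 CR libraries lay above every aged AL rat, in CPM of total counts as well.

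**Figure D2:**
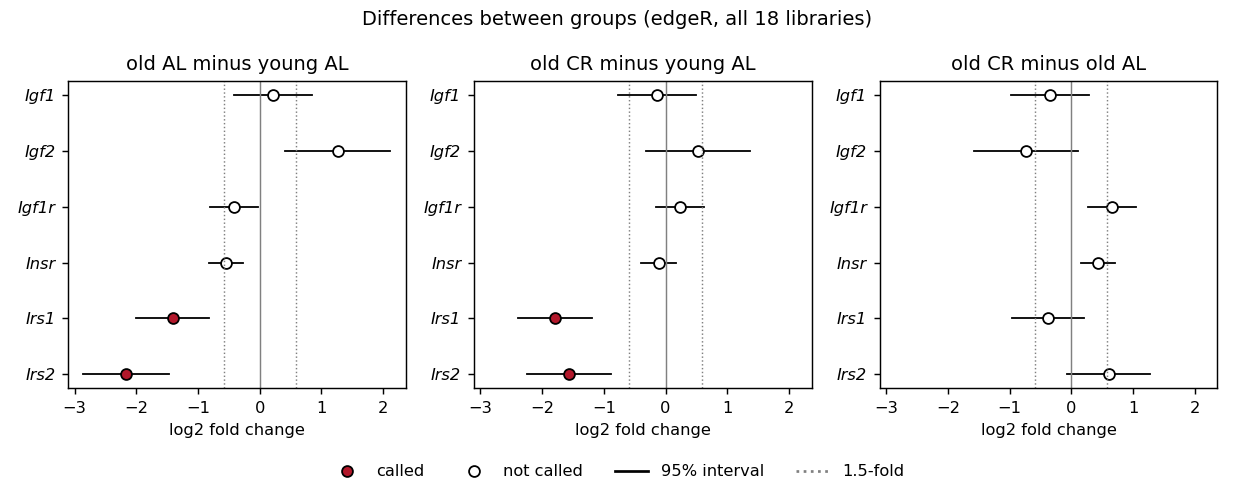
Log2 fold change of each gene (horizontal axis) in the 3 comparisons, with the 95% interval from the fit of all 18 libraries. Filled points were called, and dotted lines mark a 1.5-fold change. Irs1 and Irs2 are called lower in both comparisons with young rats, at -1.41 and -2.16 for aged AL and -1.78 and -1.56 for aged CR rats.

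The promoter of Irs1 is shown because both adaptors fell with age, and the RefSeq promoter table held windows for 5 of the 6 genes, Irs1 included. Each window covers 250 bases before and 50 after the annotated start on GRCr8, a later assembly than that of the counts. For Irs1 the 250 bases before the start, chr9:91053960-91054209 on the minus strand, are given 5′ to 3′.
Irs1: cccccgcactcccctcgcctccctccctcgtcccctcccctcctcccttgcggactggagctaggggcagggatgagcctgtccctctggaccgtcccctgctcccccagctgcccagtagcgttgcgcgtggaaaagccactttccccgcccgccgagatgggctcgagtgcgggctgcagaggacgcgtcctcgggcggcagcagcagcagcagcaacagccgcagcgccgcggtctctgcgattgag
The windows were searched on both strands for 4 motifs, which do not contain one another, and matches are descriptions of sequence and not evidence of binding. These were GTAAACA, bound by FoxO factors, CACGTG, the E-box, TGACGTCA, the cAMP response element, and AAAGGTCA, the element of NR4A receptors. They occur in 3.78%, 6.42%, 1.83% and 1.43% of the 33469 windows of the table. None of the 4 is in the Irs1 window, which has no capitals for that reason.

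Matches were found in the windows of the 2 receptors only, 1 in each, and are printed in capitals with 11 bases on each side. The Insr window holds the FoxO motif in reverse complement at bases -100 to -94 from the start (chr12:6128886-6128914 on GRCr8, minus strand), and the Igf1r window holds the E-box at -31 to -26 (chr1:130959955-130959982, plus strand).
Insr: acgggccgcgtTGTTTACtggccggagtc
Igf1r: gtgcgcgcgggCACGTGtgcgcggcccc

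The receptors were lowest on average in aged rats fed AL. Insr (ENSRNOG00000029986), the insulin receptor gene, lies on the minus strand of chromosome 12 from 1680957 to 1816414, with 6969 bases of exon in 22 blocks. Its level ran from 84.5 (rat 2) through 118 to 153 CPM (rat 3) in young rats and from 65.8 (rat 8) through 83.7 to 99.2 CPM (rat 11) in aged rats fed AL. In aged CR rats it ran from 98.5 (library 8828) through 117 to 119.9 CPM (rat 14). Of the aged AL rats 3 lay below every young rat, and 5 of the 6 CR libraries lay above every aged AL rat. In CPM of total counts the first number was again 3, and the second was 1, rat 13. The means were 122 ± 24 CPM (SD, n = 6), 83.4 ± 14 (SD, n = 6) and 113 ± 8.27 (SD, n = 6) in the same order.

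Insr had an adjusted p of 0.0271 between aged and young rats fed AL, and a log2 fold change of -0.55 (standard error 0.13, 95% interval -0.83 to -0.27) that stayed under the fold minimum. On adjusted p alone 3 of the 6 genes thus passed in this comparison, where 4.33% of all genes did. The adjusted p of Insr was above 0.05, and at most 0.0648, in 6 of the 18 fits that left out 1 library, those without rats 1, 3, 6, 9, 10 and 12. By edgeR it was 0.0840 with only the 12 libraries compared and 0.0545 with no filter, and by DESeq2 it was 0.00432 with all libraries and 0.0262 with the 12. The fold minimum was passed without rat 2, 7 or 11, with values of -0.63, -0.60 and -0.60. Aged CR rats differed from young rats by -0.11 (95% interval -0.39 to 0.17, adjusted p = 0.691) and from aged rats fed AL by 0.44 (95% interval 0.16 to 0.71, adjusted p = 0.102). By DESeq2 the latter had an adjusted p of 0.0469 with all libraries and 0.0251 with 12, at 0.43 in both, under the fold minimum. Against young rats the value of the CR rats was -0.20 without rat 2 and -0.040 without rat 3.

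Igf1r (ENSRNOG00000014187) encodes the receptor for IGF1 and IGF2, and lies on the plus strand of chromosome 1 from 128924966 to 129206516, with 4101 bases of exon in 21 blocks. It ran from 9.41 (rat 2) through 17.5 to 22.4 CPM (rat 1) in young rats, from 9.56 (rat 9) through 12.4 to 15.7 CPM (rat 7) in aged rats fed AL, and from 14.5 (library 8828) through 19.5 to 24.1 CPM (rat 14) in aged CR rats. As for Insr, 5 of 6 CR libraries lay above every aged AL rat, and library 8828 did not. In CPM of total counts rat 8 was at 21.1, and only 1 CR library, rat 14 at 21.5, lay above it. The means were 16.7 ± 4.72 CPM (SD, n = 6), 12.5 ± 2.43 (SD, n = 6) and 19.7 ± 3.60 (SD, n = 6).

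Between the aged groups Igf1r differed by a log2 value of 0.65 (standard error 0.19, 95% interval 0.26 to 1.04), 1.57-fold, at an adjusted p of 0.0786 that missed the threshold. Without rat 8 and library 8828 the difference was 0.78 at an adjusted p of 0.0248, and it was called. It was also called in 3 of the 18 fits that left out 1 library, those without rat 2, rat 8 or library 8828. Library 8828 was the lowest of the aged CR group for Igf1r. In the other such fits edgeR's adjusted p reached 0.173. By edgeR it was 0.135 with no filter and 0.0638 with only the 12 libraries compared. DESeq2's Wald test called Igf1r with all libraries and with 12. Between aged and young rats fed AL the value was -0.42 (95% interval -0.81 to -0.03, adjusted p = 0.191), and between aged CR and young rats 0.23 (95% interval -0.15 to 0.62, adjusted p = 0.522). The latter was 0.11 without rat 2 and 0.33 without rat 1.

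Igf2 (ENSRNOG00000020369), the gene of the second IGF, lies on the minus strand of chromosome 1 from 215828102 to 215846911, with 5641 bases of exon in 8 blocks. Young rats ran from 44.7 (rat 4) through 56.4 to 74.0 CPM (rat 3). The aged rats fed AL divided, with rat 8 at 34.2 and rat 7 at 50.9 CPM, and rats 10, 9, 11 and 12 at 156, 164, 207 and 227 CPM. The aged CR rats ran from 30.6 (library 8828) through 69.8 to 138 CPM (rat 14), with library 8826 at 136 CPM. In all, 4 of 6 aged rats fed AL and 3 of 6 aged CR rats were above every young rat, and 1 rat of each aged group was below every young rat, rat 8 and library 8828. In CPM of total counts rat 8 was not. The means were 58.4 ± 12.3 CPM (SD, n = 6), 139.8 ± 80.0 (SD, n = 6) and 84.0 ± 43.6 (SD, n = 6).

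For Igf2 the log2 difference between aged and young rats fed AL was 1.26 (standard error 0.41, 95% interval 0.40 to 2.12), 2.40-fold, and its adjusted p of 0.0814 missed the threshold. Without rat 8 and library 8828 it was 1.47 at an adjusted p of 0.00798, and it was called. It was also called in 2 of the 18 fits that left out 1 library, those without rat 7 or rat 8. These were the lowest aged AL rats for Igf2. In the other such fits edgeR's adjusted p reached 0.151. By edgeR it was 0.104 with only the 12 libraries compared and 0.102 with no filter. DESeq2's Wald test called Igf2 (1.27, adjusted p = 0.0226 with all libraries). That test called 3 of the 6 members, Igf2, Irs1 and Irs2, and 6% of the genes it gave an adjusted p. The values between aged CR and young rats, 0.53 (95% interval -0.32 to 1.37, adjusted p = 0.507), and between the aged groups, -0.73 (95% interval -1.58 to 0.11, adjusted p = 0.417), were within the spread between rats. The former was 0.33 without library 8826 and 0.70 without library 8828.

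Igf1 (ENSRNOG00000004517), the gene of the first IGF, lies on the plus strand of chromosome 7 from 28412198 to 28486609, with 1925 bases of exon in 6 blocks. It ran from 19.4 (rat 3) through 30.8 to 32.6 CPM (rat 1) in young rats. In aged rats fed AL it ran from 18.6 (rat 12) through 25.5 to 77.4 CPM (rat 8), and in aged CR rats from 14.9 (library 8827) through 26.3 to 40.6 CPM (library 8828). The highest library of each aged group was the one that stood apart, and the groups overlapped in every comparison. Rat 8 was 3.17 times the mean of the other aged AL rats and library 8828 was 1.75 times the mean of the other CR libraries. In rat 8 the other high genes go with Igf1 by the way they were chosen. In library 8828, which was not used to choose them, they took a larger share of the counts than in the other CR libraries, and their part in the level of Igf1 was not tested.

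**Figure D3:**
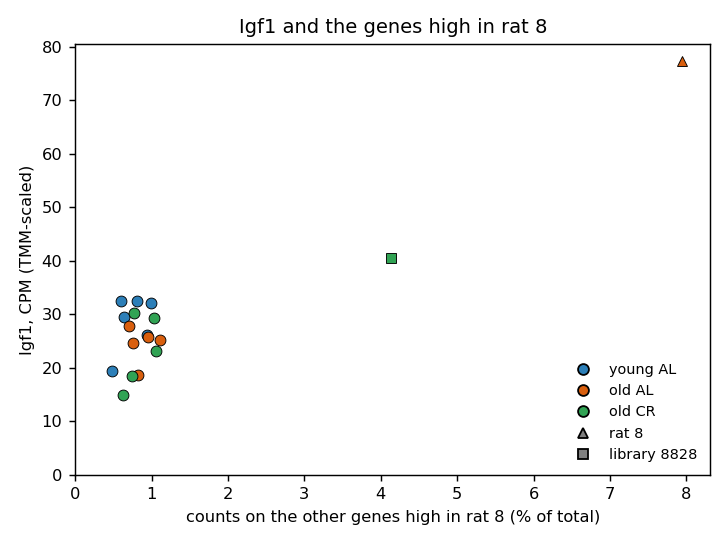
Igf1 in CPM after TMM scaling (vertical axis) against the percent of counts on the 953 other genes high in rat 8 (horizontal axis), 1 point per library. Rat 8, from which the genes were chosen, at 7.94% and library 8828 at 4.13% lie apart from the other 16 libraries, which have at most 1.12% and at most 32.6 CPM of Igf1.

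The mean of Igf1 was 28.7 ± 5.18 CPM (SD, n = 6) in young rats, 33.2 ± 21.8 (SD, n = 6) in the aged AL group and 26.1 ± 9.28 (SD, n = 6) in the aged CR group. Without rat 8 the aged AL mean was 24.4 ± 3.45 CPM (SD, n = 5), and without library 8828 the aged CR mean was 23.2 ± 6.69 (SD, n = 5). The log2 difference between aged and young rats fed AL was 0.21 (95% interval -0.41 to 0.84, adjusted p = 0.720) with all libraries and -0.23 (adjusted p = 0.449) without these 2. Its sign thus rested on rat 8. Aged CR rats differed from young rats by -0.13 (95% interval -0.76 to 0.49, adjusted p = 0.849) and from aged rats fed AL by -0.35 (95% interval -0.98 to 0.28, adjusted p = 0.632). Without the 2 libraries these values were -0.30 (adjusted p = 0.339) and -0.069 (adjusted p = 0.868), and without rat 8 alone the latter was 0.11. Without library 8827 the value against young rats was -0.0055.

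Unlike Igf1, most other members were low in library 8828. It had the lowest level of the aged CR group for Igf2, Igf1r, Insr, Irs1 and Irs2, at 0.323 to 0.852 times the mean of the other CR libraries. In CPM of total counts this held for 4 of these genes, and Insr was 1.01 times the mean of the others. The share of all genes lowest in library 8828 was not counted, so its low levels are not shown to be particular to the members. Rat 8 had the lowest level of its group for Igf2, Insr and Irs1, while its Igf1r was 1.22 times the mean of the other aged AL rats. In CPM of total counts it was the lowest for Igf2 only, since rat 10 was lower for Insr and rat 11 for Irs1. On that scale the Igf1r of rat 8 was the highest of its group, at 1.70 times the mean of the others. The calls of Irs1 and Irs2 did not rest on rat 8 or library 8828. Without both libraries Irs1 differed from young rats by -1.28 in aged rats fed AL (adjusted p = 0.00787) and by -1.68 in aged CR rats (adjusted p = 0.00189). Irs2 differed by -2.10 (adjusted p = 0.00143) and -1.43 (adjusted p = 0.0192).

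Levels can be compared between genes only per exon length. On that scale, in CPM per kilobase of exon, young muscle had 35.3 ± 17.2 (SD, n = 6) of Irs2 and 33.6 ± 13.2 (SD, n = 6) of Irs1, which did not differ beyond their spread. Insr followed at 17.5 ± 3.45, Igf1 at 14.9 ± 2.69, Igf2 at 10.3 ± 2.18 and Igf1r at 4.08 ± 1.15 (SD, n = 6 each). Insr and Igf1 were within their spread of each other. Irs2 and Irs1 thus headed the order in young rats, above 87.9% and 87.3% of the genes tested.

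In aged rats fed AL the order by mean level per kilobase was Igf2 (24.8 ± 14.2), Igf1 (17.3 ± 11.3), Irs1 (12.7 ± 6.15), Insr (12.0 ± 2.01), Irs2 (7.89 ± 2.28) and Igf1r (3.05 ± 0.593, SD, n = 6 each). Neighbours above Irs2 in this order differed by less than their spread. In aged CR rats Insr (16.2 ± 1.19) stood first, before Igf2 (14.9 ± 7.73), Igf1 (13.6 ± 4.82), Irs2 (12.0 ± 3.89), Irs1 (9.75 ± 2.18) and Igf1r (4.80 ± 0.877, SD, n = 6 each). There the neighbours down to Irs1 differed by less than their spread. Without rat 8 and library 8828 the places of these close neighbours changed. In aged rats fed AL, Igf1 was then at 12.7 ± 1.79, behind Irs1 at 13.8 ± 6.08, and in aged CR rats Igf2 was at 16.8 ± 6.91, before Insr at 16.6 ± 0.709 (SD, n = 5 each). Igf1r was last in all 3 groups, and Insr exceeded it per kilobase in every library, by 2.63 (rat 8) to 5.29 times (rat 2).

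**Figure D4:**
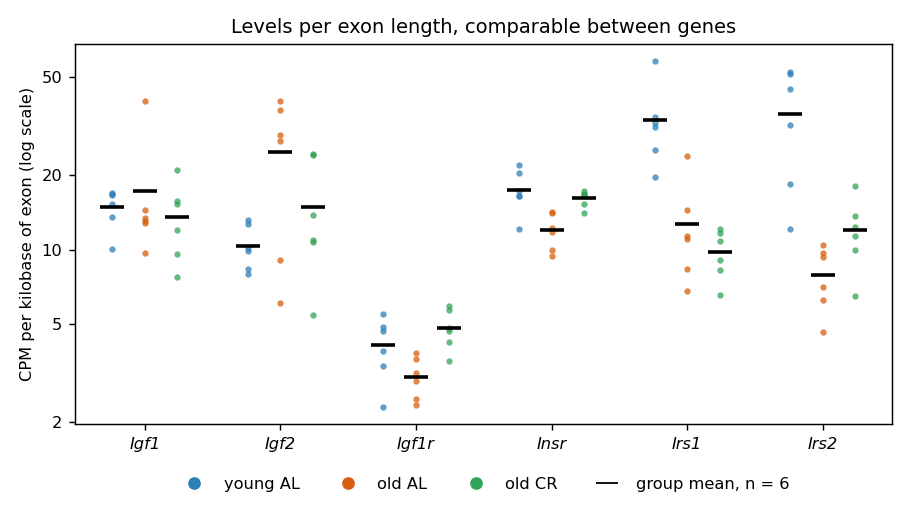
CPM per kilobase of exon in each library (vertical axis, log scale) for the 6 genes, coloured by group, with a bar at each group mean. In young rats Irs1 and Irs2 have the highest means at 33.6 and 35.3, and Igf1r has the lowest mean in every group.

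The adaptors changed place from rat to rat among the young. Irs2 per kilobase was 0.210 times Irs1 in rat 1 and 2.67 times in rat 4, with a median of 1.2. In aged rats fed AL the ratio lay between 0.293 and 1.16 and in aged CR rats between 0.917 and 1.55, so the groups overlapped. Within the young rats the log2 levels of Irs1 and Irs2 ran in opposite directions, with Pearson's r = -0.89 (two-sided exact permutation p = 0.00417, adjusted p = 0.0375) and Spearman's rho = -0.94 (exact permutation p = 0.0167, adjusted p = 0.150). The adjustment was over 9 relations, the 2 ligands, the 2 receptors and the 2 adaptors within each group. Without the 2 rats farthest from the median of Irs1, r was -0.75 over 4 rats.

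The same pair gave r = -0.23 in aged rats fed AL (exact permutation p = 0.654, adjusted p = 0.748) and r = 0.81 in aged CR rats (exact permutation p = 0.0514, adjusted p = 0.116). With rho these were -0.14 (exact permutation p = 0.803, adjusted p = 0.903) and 0.77 (exact permutation p = 0.103, adjusted p = 0.231). Without the 2 rats farthest from the median of Irs1, r was -0.77 in aged rats fed AL and 0.49 in aged CR rats, over 4 rats each. The difference between groups in this relation was not tested. None of the other 6 relations had an adjusted exact permutation p of at most 0.05 by r or by rho.

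**Figure D5:**
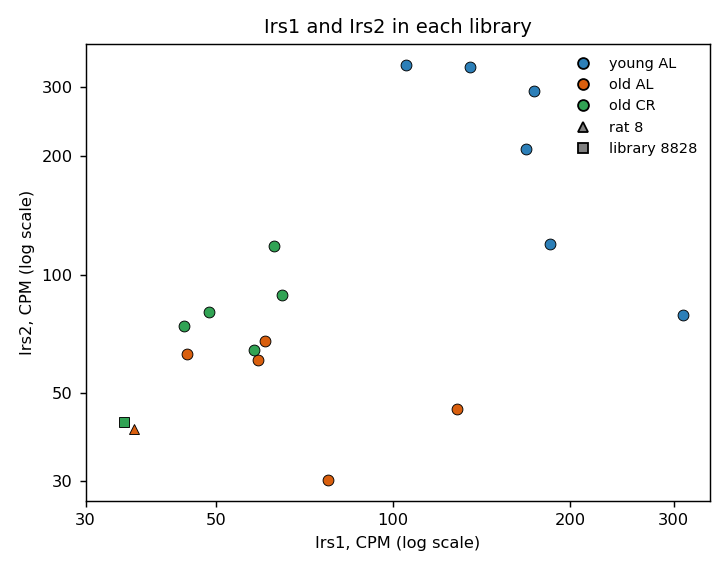
Irs2 (vertical axis) against Irs1 (horizontal axis) in CPM on log scales, 1 point per library. In the young rats Irs2 is lowest, at 79.1 CPM, where Irs1 is highest, at 311 CPM.

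The spread between rats also differed between the members. In young rats the coefficient of variation was 48.8% for Irs2 and 39.3% for Irs1, above those of 89.2% and 82.5% of the genes tested, whose median was 19.8%. The value of Irs1 rested on rat 1 and was 21.3% without it, while that of Irs2 was at least 36.4% with any 1 rat left out. Insr in aged CR rats varied by 7.34%, less than all but 8.23% of genes, and by 4.27% without library 8828. Igf2 went from 21.0% in young rats to 57.2% in aged rats fed AL and 51.9% in aged CR rats, where the medians over all genes were 25.2% and 18.4%. It was 42.3% in aged rats fed AL without rat 8, and 41.1% in aged CR rats without library 8828.

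The identifiers most like each member were found by Pearson's r of log2 CPM over all 18 libraries, which share groups and scaling, and are given as a description. For Irs2 it was ENSRNOG00000005964 (r = 0.91, chromosome 5 from 63781801 to 63821637), with means of 59.8, 8.18 and 23.1 CPM in young AL, aged AL and aged CR rats. For Irs1 it was ENSRNOG00000032152 (r = 0.88, chromosome 10 from 15349888 to 15381691), with 42.2, 22.1 and 24.4 CPM. For Igf1 the highest r was 0.91, and the same identifier had r = 0.78 over the 16 libraries without rat 8 and library 8828.

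Over the 16 libraries another identifier ranked first for every member but Irs2. For Igf2 the identifier most like it over 18 libraries lies close to it on the same chromosome and strand. It is ENSRNOG00000040350, 84 bases long, from 215745981 to 215746064 on chromosome 1, 82.0 kb from Igf2. Its r was 0.91 over 18 libraries and 0.90 over the 16, where an identifier on chromosome 13 had 0.91. Its level was 372 ± 162 CPM (SD, n = 6) in young rats, 1276 ± 839.6 (SD, n = 6) in the aged AL group and 815 ± 459 (SD, n = 6) in the aged CR group, and the difference between aged and young rats fed AL, 1.78 on the log2 scale, missed the threshold (adjusted p = 0.0803). The files do not pair these identifiers with symbols. The nearest profiles to Insr and Igf1r had r = 0.94 and 0.87.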

How the data were processed

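Ribosomal RNA was depleted and directional libraries were made. The authors trimmed reads with cutadapt 1.2.1, aligned them with STAR 2.3.0e and counted paired fragments on Ensembl release 96 of Rnor_6.0 with featureCounts 1.6.4, and the deposited values are raw counts per gene. Per the file headers no strand option was set, so a gene and an antisense partner cannot be told apart. Depth was 17335401 to 27432767 counts per library.

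Groups came from the sample titles, which number the rats separately, so p-values rest on the spread between rats. The column names of the aged CR libraries repeat the sample number 15 and lack 18. That each of these libraries is a separate rat thus rests on the titles and on library numbers that all differ. Members, gene lists and tests were chosen with earlier results of these data known. In R 4.3.3, edgeR 4.0.16 fitted all 18 libraries at once (filterByExpr, TMM scaling, quasi-likelihood F test, group as the only term), with Benjamini-Hochberg adjustment over 14646 genes, and a call also needed a 1.5-fold change. The standard error was taken from the F statistic and the log2 fold change. Log2 CPM used a prior count of 2. Alternatives were DESeq2 1.42.0, fits of 12 libraries, RLE and upper-quartile scaling, other filters (none, or 10 counts in every library), robust shrinkage, no fold minimum, and leaving out libraries. The fits were tested on simulated counts. Named genes were all members and the identifiers most like Irs1, Irs2 and Igf2. For the other members only the r of the nearest profile was given. The identifiers are not paired with symbols in the tables used (0 Ensembl identifiers in the RefSeq gene list), so the symbols of the 6 members came from the list that chose them, and other pathway genes and markers of muscle or other cell types were not analysed here. Identifiers that overlap Igf2, Igf1r and Irs1 had 9, 80 and 81 counts in all.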

Additional observations from a re-analysis of the deposited data

Results flagged for a closer look

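The level of Igf1 in rat 8 stood apart from the other aged rats fed AL. Its gap to the nearest rat was 0.844 of the range of the group, above Dixon's 95% critical value for 6 samples. The level was 77.4 CPM, with the next rat at 27.7. Of the 18 groups of 6 values examined, this was the only one above the critical value, where chance gives about 0.9.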

How the results depend on the processing

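Of the 18 differences, 13 kept their sign and stayed either called, which needs both thresholds, or not called under all 28 alternatives. Among these 13, Irs1 and Irs2 against young rats were called in every fit, and the rest were called in none. Igf1 between aged and young rats fed AL turned from 0.21 to -0.23 without rat 8 and library 8828, with a range of -0.23 to 0.34 over fits that left out 1 library, and between the aged groups from -0.35 to 0.11 without rat 8 (range -0.52 to 0.11). Igf2 between aged and young rats fed AL was called by DESeq2 at 1.27 with all libraries and 1.27 with 12, and at 1.47 without the 2 libraries (leave-one-out range 1.07 to 1.47). Insr in that comparison was called at -0.55 with no fold minimum (range -0.63 to -0.47), and the number of members called lay between 2 and 4. Igf1r between the aged groups was called by DESeq2 at 0.65 with all libraries and 0.65 with 12, and at 0.78 without the 2 libraries (range 0.59 to 0.73). The number of members called between the aged groups was then 1, and lay between 0 and 1 when libraries were left out. Apart from the library behind the sign of Igf1, the cause of these changes was not tested. All 18 group levels moved by less than 1 SD in CPM of total counts. With all libraries and AL feeding, DESeq2 called 988 genes for age, against 497 by edgeR, and 703 against 290 and 444 against 202 in the other 2 comparisons. With 12 libraries DESeq2 called 868, 952 and 429 genes and edgeR 258, 441 and 130. The 10 counts required in every library left 330 genes called for age under AL feeding, and no filter left 129 between the aged groups. Without the 2 libraries 455 and 477 genes were called in the comparisons with aged CR rats. Leaving out 1 library gave 288 to 678 genes for age under AL feeding, 185 to 578 for aged CR against young rats and 69 to 385 between the aged groups. No paired analysis was possible because the rats are numbered from 1 to 18 with no number shared between groups.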

Other observations

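Few identifiers close to the members passed the filter on low counts. Within 100 kb there were 2 each near Igf2 and Igf1r, 1 each near Insr and Irs1, and 0 near Igf1 and Irs2. The one near Irs1 lies 24.2 kb away on the other strand (chromosome 9 from 88110731 to 88229479) and had Pearson's r = 0.76 with Irs1 over 18 libraries and 0.78 over the 16 without rat 8 and library 8828. The neighbour of Igf2 on its other side, 61.5 kb away, had r = -0.48. The 2 near Igf1r had r = 0.05 and -0.20, and the one near Insr had -0.21 over 18 libraries and 0.60 over the 16. The libraries share groups and scaling, and these values are a description, looked at after the likeness of the other Igf2 neighbour was seen.

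The balance of the IGF ligands moved from rat to rat. Igf2 exceeded Igf1 per kilobase of exon in 1 of 6 young rats, 4 of 6 aged rats fed AL and 5 of 6 aged CR rats. The ratio of Igf2 to Igf1 had a median of 0.665 (0.477 to 1.30) in young rats, 2.09 (0.151 to 4.16) in aged rats fed AL and 1.28 (0.257 to 1.58) in aged CR rats. Its lowest value in each aged group was in rat 8 and in library 8828. The share of genes high in rat 8 was also highest in these 2 libraries, and its part in the ratio was not tested.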
